A study of Artemia parthenogenetic lineage with 6 samples.

Results

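The gene evm.TU.ctg275.1 of Artemia was described here through its ATAC-seq peaks, which were all rows of the deposited peak table that name it as the nearest gene. These were 26 of 112790 merged peaks, and the table named 12010 genes in all. ATAC-seq tags DNA that the Tn5 transposase can reach, and more reads in a peak mean that more copies of this DNA were open. Libraries came from wild-type A. parthenogenetica cysts, gastrula embryos inside a shell, collected at Ebinur Lake. The ArD_0h group was cysts in diapause, without further treatment, and the ArR_5h group was cysts 5 h after embryonic diapause termination (EDT), with dry cysts rehydrated in cold artificial seawater of 30‰ and then incubated in it under continuous light. Each group had 3 biological replicates, and both groups were taken from the same batch of cysts. The protocol gives 28 °C for the incubation, whereas the treatment labels give 28, 29 and 30 °C for ArR_5h replicates 1, 2 and 3, so the temperature of replicates 2 and 3 could not be settled. Whole cysts were used, so peaks stand for all embryonic cells together, and reads were mapped to the genome of another species, A. franciscana. Counts in peaks summed to between 5239170 and 9366963 per library.

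Proton-selective channels are membrane proteins that let hydrogen ions pass down their electrochemical gradient, and proton pumps such as the V-type ATPase build such gradients by spending ATP. Proton movement sets the pH of the cell and of its organelles. Artemia embryos are known for large shifts in intracellular pH between dormancy and active metabolism. The study links this gene to proton transfer through proton-selective channels and places it among signal transduction genes. The terms in the study's annotation name signal transduction, transport of heme, assembly of cytochrome complexes, a methyltransferase activity, binding of proteins and an integral membrane position. None of these terms names a proton or a channel, so the link could not be checked with the sources used here, and the gene is called by its ID. The study selected it as rising after EDT partly on these same libraries, so its direction here is not independent evidence.

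The gene lies on the minus strand of contig ctg275 at positions 79 to 181320, and its end is near the end of the contig. Its length in the table is 181242 bp. The next gene, evm.TU.ctg275.2, is also on the minus strand, at positions 176920 to 359888, and overlaps it by 4401 bp. Of the 26 peaks, 19 lie inside the body of evm.TU.ctg275.1 and 7 upstream of its transcription start site (TSS). All 7 upstream peaks lie inside the body of evm.TU.ctg275.2 and were given to evm.TU.ctg275.1 by the nearest TSS, so they cannot be assigned to 1 of these genes from position alone. No peak overlaps the TSS, and 1 lies within 3000 bp of it, the distance taken here as promoter. Exons and introns could not be told apart, because the table gives gene bodies only.

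More peaks of evm.TU.ctg275.1 were higher than lower 5 h after EDT, and most of those that rose stood in the middle of the gene body, away from the TSS. Counts were normalized by TMM and are given as CPM, the counts in a peak scaled to a common size of all libraries. The test was edgeR's quasi-likelihood test, with p-values adjusted over all tested peaks by the Benjamini-Hochberg method. A call needed both an adjusted p no higher than 0.05 and a log2 difference that exceeded 1 in either direction, called here the limit on size. Of the 26 peaks, 25 passed the filter on low counts. Among these, 10 were called higher in ArR_5h (40.0%, against 14.5% of all 112211 tested peaks), 1 was called lower (against 15.2%) and 14 were not called. With the adjusted p alone, 12 were higher (against 20.0%) and 3 lower (against 19.7%). The median log2 difference was 0.67 over the 25 peaks and -0.07 over all tested peaks. All 3 ArR_5h libraries were above all 3 of ArD_0h at 13 peaks (against 26.4% of all tested peaks) and below them at 4 (against 25.7%).

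**Figure D1:**
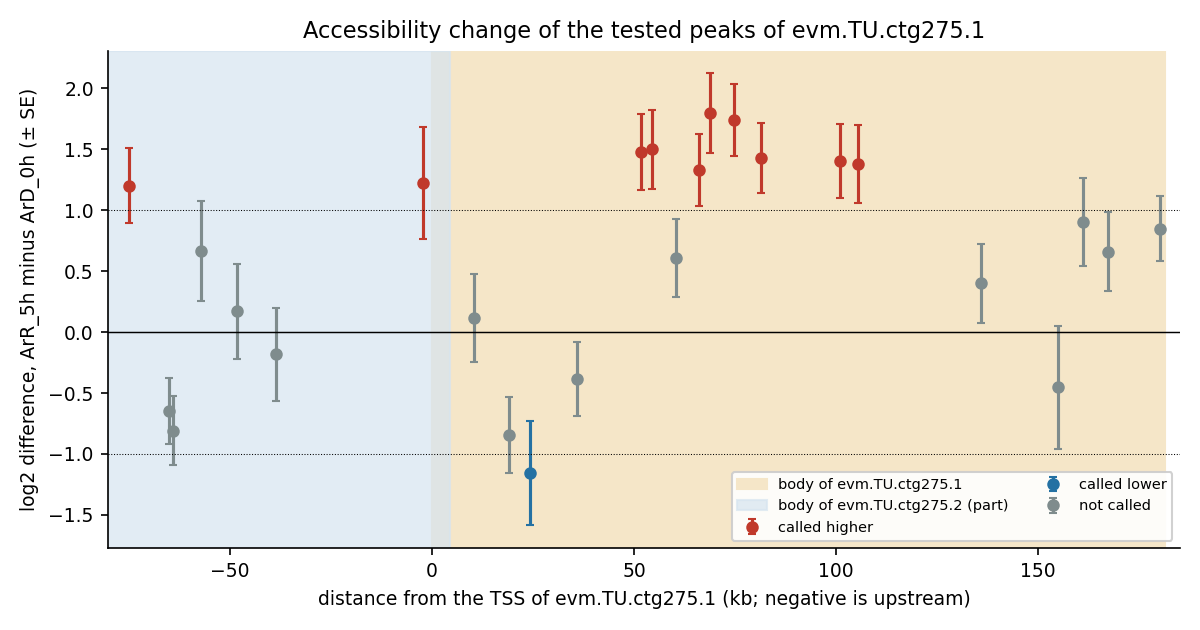
Log2 difference in accessibility (ArR_5h minus ArD_0h, with SE) of the 25 tested peaks of evm.TU.ctg275.1 against their distance from its TSS in kb. Red points were called higher, the blue point lower and grey points not called, dotted lines mark the limit on size, and the shaded bands are the bodies of this gene and of the next one. The 8 peaks called higher inside the body all lie between 51762 and 105360 bp from the TSS.

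Inside the gene body, 8 of 18 tested peaks were called higher (17.5% of all tested peaks inside the body of their own gene were) and 1 was called lower (9.87% were), with a median log2 difference of 0.88. A stretch was set here from the first to the last of these 8 peaks, so no tested body peak outside it could be called higher. It covers positions 75449 to 129558 (54110 bp), with gaps between its peaks of up to 16555 bp. It held 10 peaks, of which 8 were called, 1 was not called and 1 was filtered. Each of these 8 peaks was also called higher in all 11 alternative fits (another tool, other scalings, no filter, a replicate block and each library left out).

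The peak with the largest difference, 68724 bp from the TSS (positions 112277 to 112596), had 1.81, 3.21 and 4.18 CPM in ArD_0h (here and in what follows in the order of replicates 1, 2 and 3) and 12.2, 10.5 and 8.62 CPM in ArR_5h. The lowest ArR_5h library was thus above the highest ArD_0h library. Its log2 difference was 1.80 (SE 0.326, adjusted p = 0.000414 by edgeR's quasi-likelihood test), and the ratio of the group means was 3.40. The peak 74627 bp from the TSS (positions 106268 to 106693) had 3.34, 5.81 and 6.08 CPM in ArD_0h and 17.8, 17.0 and 15.7 CPM in ArR_5h. This is the peak with the lowest adjusted p of the gene, 0.000257 by edgeR's quasi-likelihood test, with a log2 difference of 1.74 (SE 0.295). The ArR_5h libraries there lay within a range narrower than their distance from any ArD_0h library.

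The peaks with the most counts inside the gene body also belong to this stretch. At 100913 bp from the TSS (positions 79705 to 80407), the level was 8.63, 16.2 and 13.9 CPM in ArD_0h and 30.4, 37.5 and 34.3 CPM in ArR_5h. Every ArR_5h library was above every ArD_0h library, and the log2 difference was 1.40 (SE 0.304, adjusted p = 0.00148 by edgeR's quasi-likelihood test). At 54483 bp (positions 126251 to 126837), the level was 5.29, 10.9 and 12.7 CPM in ArD_0h and 30.8, 26.3 and 23.8 CPM in ArR_5h, with a log2 difference of 1.5 (SE 0.321, adjusted p = 0.00136 by edgeR's quasi-likelihood test). At both peaks ArD_0h replicate 1 was the lowest library. These peaks had mean levels at the 94.6 and 91.3 percentiles of all peaks of the table, tested or not.

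The peak 51762 bp from the TSS (positions 129202 to 129558), the one of the stretch nearest to the TSS, had 2.37, 5.20 and 5.32 CPM in ArD_0h and 11.5, 12.0 and 12.0 CPM in ArR_5h (log2 difference 1.48, SE 0.310). The peak at 105360 bp (positions 75449 to 75960), the one farthest from it, had 4.31, 9.79 and 10.8 CPM in ArD_0h and 19.9, 24.2 and 20.2 CPM in ArR_5h (log2 difference 1.38, SE 0.318). The differences at both ends of the stretch were within 1 SE of each other, and neither peak showed overlap between the groups. Between them, the peak at 66110 bp had 3.06, 5.81 and 4.75 CPM in ArD_0h and 10.9, 11.3 and 12.0 CPM in ArR_5h (log2 difference 1.33, SE 0.297). The peak at 81312 bp had 6.40, 4.74 and 5.89 CPM in ArD_0h and 18.7, 15.3 and 11.6 CPM in ArR_5h (log2 difference 1.43, SE 0.288). At this last peak alone among the 10 called higher, ArD_0h replicate 1 was not the lowest library. The adjusted p of these 4 peaks lay between 0.000901 and 0.00227 by edgeR's quasi-likelihood test.

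Among the other peaks of the stretch, the one at 60496 bp was not called. Its levels were 3.76, 8.87 and 9.69 CPM in ArD_0h and 11.3, 13.8 and 8.25 CPM in ArR_5h, with a log2 difference of 0.61 (SE 0.320, adjusted p = 0.129 by edgeR's quasi-likelihood test). The groups overlapped there, since ArR_5h replicate 3 was below ArD_0h replicates 2 and 3. The peak at 84158 bp did not pass the filter. It had 9, 4 and 3 counts in ArD_0h and 36, 23 and 8 counts in ArR_5h, so the groups overlapped in counts, though not in CPM. Without the filter its log2 difference was 1.77 (adjusted p = 0.0376 by edgeR's quasi-likelihood test). It also passed the filter when any of 4 libraries was left out. It was then called higher without ArD_0h replicate 1 (2.22) and without ArR_5h replicate 3 (2.01), and was not called without ArD_0h replicate 2 or 3 (1.62 and 1.60, adjusted p = 0.0679 and 0.0691 by edgeR's quasi-likelihood test).

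**Figure D2:**
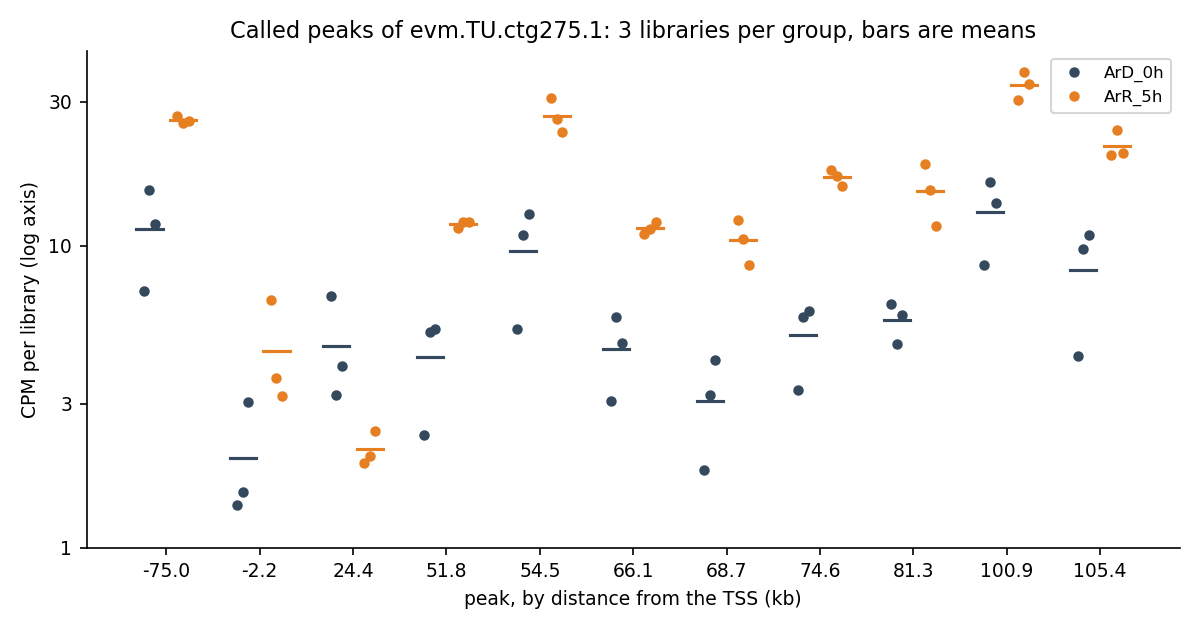
CPM per library (log axis) of the 11 called peaks of evm.TU.ctg275.1, ordered by distance from the TSS in kb, with 3 points per group and bars at the group means. The groups do not overlap at any of these peaks, and ArD_0h replicate 1, the leftmost point of its group, is the lowest at 9 of the 10 peaks called higher.

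The 10 peaks called higher had mean levels of 1.99 to 12.9 CPM in ArD_0h and 4.50 to 34.1 CPM in ArR_5h, and the ratio of means ranged from 2.26 to 3.40. ArD_0h replicate 1 was the lowest of the 6 libraries at 9 of these 10 peaks and at 11 of the 25 tested. Counts in peaks were 6557546, 6492091 and 5239170 in ArD_0h, at RPM library totals of 61652281, 50100200 and 41305253. In ArR_5h they were 9366963, 8708731 and 5497870, at totals of 63171194, 59523810 and 40032026. ArD_0h replicate 1 thus had the smallest part of its total in peaks, and every ArR_5h library had a larger part than every ArD_0h library. Whether this bears on the levels here was not tested. Without ArD_0h replicate 1, the 8 peaks of the stretch were still called higher, and the share of all peaks called higher was 10.8%. The 10 peaks were 200 to 743 bp wide (median 469 bp, against 328 bp over all peaks of the table), and the 14 not called were 200 to 873 bp wide (median 305 bp). They were made of 1 to 6 summits (median 4), against 1 to 4 (median 2) in those not called. Across the 25 peaks, the log2 difference went with the mean level (Pearson coefficient 0.46, Spearman coefficient 0.48). Over all 112211 tested peaks the same relation gave 0.24 and 0.26. These are descriptions over peaks that share the same 6 libraries. The mean level also contains the ArR_5h values that enter the log2 difference, so the measures are not independent.

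By the way this stretch was set, none of the 4 peaks between the TSS and it could be called higher. Their log2 differences were -1.16 to 0.12, and 1 of them was called lower. This peak, 24351 bp from the TSS (positions 156627 to 156969), had 6.82, 3.21 and 3.99 CPM in ArD_0h and 1.91, 2.01 and 2.44 CPM in ArR_5h. The groups did not overlap, with ArD_0h replicate 1 the highest, and the log2 difference was -1.16 (SE 0.426, adjusted p = 0.0337 by edgeR's quasi-likelihood test). The call was lost without ArD_0h replicate 1 (log2 difference -0.77, adjusted p = 0.209) and without ArR_5h replicate 1, 2 or 3 (adjusted p = 0.112, 0.0949 and 0.0502 by edgeR's quasi-likelihood test). It was also lost with the loess trend on level removed (-0.86) and with RPM library totals in place of TMM (-0.99).

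The peak at 19187 bp was also at lower levels in ArR_5h, with 7.79, 6.58 and 9.69 CPM in ArD_0h and 5.06, 2.95 and 5.44 CPM in ArR_5h. Its log2 difference of -0.85 (SE 0.313, adjusted p = 0.0345 by edgeR's quasi-likelihood test) was under the limit on size. At 35810 bp the log2 difference was -0.39 (adjusted p = 0.303 by edgeR's quasi-likelihood test), and its groups overlapped. The peak nearest to the TSS inside the gene, at 10538 bp, had 4.87, 7.49 and 2.47 CPM in ArD_0h and 6.08, 3.66 and 6.75 CPM in ArR_5h. These values were interleaved, with a log2 difference of 0.12 (SE 0.361, adjusted p = 0.806 by edgeR's quasi-likelihood test).

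Beyond the stretch, towards the end of the gene, 5 peaks had log2 differences from -0.45 to 0.90. None was called lower, and none could be called higher by the way the stretch was set. The peak at 180096 bp, at positions 352 to 1224 near the contig end, was the widest of the gene at 873 bp. It had 7.93, 8.72 and 7.22 CPM in ArD_0h and 13.5, 13.8 and 15.9 CPM in ArR_5h, so that the groups were apart. Its log2 difference was 0.85 (SE 0.270, adjusted p = 0.0162 by edgeR's quasi-likelihood test), and it missed the call by size only. With RPM library totals in place of TMM it was called higher, just over the limit. A miss by size only was also seen at 160971 bp, with 2.78, 3.36 and 2.28 CPM in ArD_0h and 4.16, 6.02 and 5.81 CPM in ArR_5h (log2 difference 0.90, adjusted p = 0.0483 by edgeR's quasi-likelihood test). This peak was called higher without ArD_0h replicate 2 (1.11), with the loess trend removed (1.04) and with RPM library totals (1.06). At 167157 bp the log2 difference was 0.66 and the groups were apart, but the adjusted p was 0.0994 by edgeR's quasi-likelihood test. The groups overlapped at 135851 bp (0.40) and at 154988 bp (-0.45).

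Upstream of the TSS, inside the body of evm.TU.ctg275.2, 2 of 7 peaks were called higher and none lower (against 14.5% and 15.2% of all tested peaks), and the median log2 difference was 0.17. The peak 74972 bp upstream (positions 256292 to 257029) had 7.10, 15.3 and 11.8 CPM in ArD_0h and 27.0, 25.5 and 25.9 CPM in ArR_5h. All ArR_5h libraries were well above all ArD_0h libraries, and the log2 difference was 1.20 (SE 0.307, adjusted p = 0.00456 by edgeR's quasi-likelihood test). Without ArD_0h replicate 1 the difference was 0.93, and with the loess trend removed it was 0.85, both under the limit on size.

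The only promoter peak, 2196 bp upstream (positions 183516 to 183715), was weak, at the 14.9 percentile of levels. Its levels were 1.39, 1.53 and 3.04 CPM in ArD_0h and 6.64, 3.66 and 3.19 CPM in ArR_5h, from 10, 10 and 16 counts and from 59, 31 and 17 counts. ArD_0h replicate 3 and ArR_5h replicate 3 nearly met, whereas ArR_5h replicate 1 stood above the rest. The log2 difference was 1.22 (SE 0.458, adjusted p = 0.0366 by edgeR's quasi-likelihood test). The call was lost without ArD_0h replicate 1 or 2 (adjusted p = 0.0570 and 0.0902 by edgeR's quasi-likelihood test) and without ArR_5h replicate 1 or 2 (adjusted p = 0.288 and 0.0621). The log2 differences in these 4 fits, in the same order, were 1.02, 1.12, 0.81 and 1.36.

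A pair of upstream peaks pointed the other way. At 64007 bp upstream the level was 11.3, 10.7 and 10.1 CPM in ArD_0h and 5.74, 7.67 and 4.69 CPM in ArR_5h, with a log2 difference of -0.81 (SE 0.281, adjusted p = 0.0259 by edgeR's quasi-likelihood test). It was under the limit on size, and was called lower without ArR_5h replicate 2 (-1.02). At 64975 bp upstream the level was 15.7, 11 and 11.6 CPM in ArD_0h and 7.88, 7.91 and 8.81 CPM in ArR_5h, with a log2 difference of -0.65 (adjusted p = 0.0605 by edgeR's quasi-likelihood test). The groups did not overlap at either peak, and the peaks lie less than 1000 bp apart. The remaining 3 upstream peaks, at 57004, 48271 and 38451 bp, had log2 differences of 0.67, 0.17 and -0.18, with overlapping groups.

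The middle of the body held a larger share of the gene's counts in ArR_5h than in ArD_0h. The stretch of 10 peaks, chosen here from its calls and so given without a test, held 28.6%, 42.5% and 45.9% of the gene's peak counts in ArD_0h and 59.7%, 61.8% and 58.1% in ArR_5h. The means were 39.0% ± 9.15 (SD, n = 3) and 59.9% ± 1.83 (SD, n = 3). Summed over the stretch, the level was 40.2, 71.1 and 73.9 CPM in ArD_0h and 167, 171 and 148 CPM in ArR_5h, a ratio of means of 2.63. ArD_0h replicate 1 stood below the other ArD_0h libraries on both scales.

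The other stretches had smaller mean shares in ArR_5h. The 4 peaks between the TSS and the stretch held 16.2% ± 3.83 (SD, n = 3) of the counts in ArD_0h and 6.63% ± 1.88 in ArR_5h, and their summed CPM went from 25.0 ± 3.61 to 17.8 ± 4.39. The 7 upstream peaks held 30.2% ± 2.98 and 20.9% ± 0.654, although their summed CPM was slightly greater in ArR_5h (56.6 ± 4.05 against 47.0 ± 4.36). The 5 peaks towards the gene end held 14.6% ± 3.13 and 12.6% ± 0.591, with overlapping groups, while their summed CPM went from 22.6 ± 2.67 to 34.1 ± 1.96. A share falls here also where the level does not, because shares add up to the whole.

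**Figure D3:**
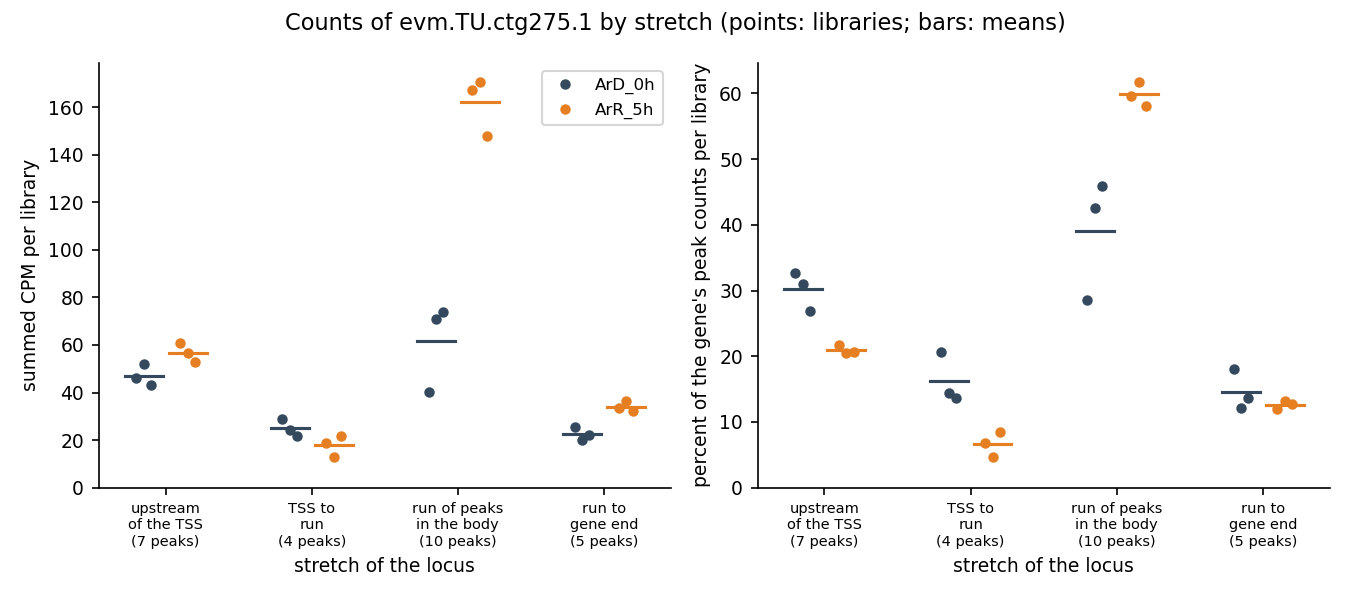
Counts of evm.TU.ctg275.1 by stretch of the locus, as summed CPM (left) and as percent of the gene's peak counts (right), with 1 point per library and bars at group means (3 libraries per group). The stretch of 10 peaks in the middle of the body goes from 61.7 to 162 CPM in mean, while the 4 peaks nearer to the TSS go from 25.0 to 17.8 CPM.

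Summed over its 26 peaks, the gene had 1010, 1094 and 848 counts in ArD_0h and 2494, 2342 and 1359 counts in ArR_5h. This was 150, 169 and 160 CPM against 269, 270 and 253 CPM, or 160 ± 9.47 (SD, n = 3) against 264 ± 9.73 (SD, n = 3). Every ArR_5h library was well above every ArD_0h library, and the ratio of means was 1.65. The log2 difference of the sums was 0.72 (SE 0.0946, adjusted p = 0.000764 by edgeR's quasi-likelihood test over 12002 genes). It passed the adjusted p, as 21.1% of genes did in this direction, but not the limit on size, which 2.57% of genes passed as higher and 5.97% as lower. The difference was above that of 91.7% of genes. With only the peaks of the gene body, an alternative added after the data were seen because the upstream peaks lie in the next gene, the log2 difference was 0.81 (adjusted p = 0.00151 by edgeR's quasi-likelihood test). The mean log2 CPM over the peaks was 2.48 ± 0.115 in the 3 ArD_0h libraries and 3.07 ± 0.0893 in the 3 of ArR_5h (SD over libraries), with a difference of 0.59 (2-sided p = 0.1 by an exact permutation test, which cannot go lower with 3 libraries in each group). Of 601 genes with 25 or more tested peaks, 58 (9.65%) had 40.0% or more of their peaks called higher, and the median share was 14.3%.

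The genes that follow evm.TU.ctg275.1 on the contig were also more accessible in ArR_5h. evm.TU.ctg275.2 had 12 of 24 tested peaks called higher and none lower (against 14.5% and 15.2% of all tested peaks). Its summed level was 103, 124 and 137 CPM in ArD_0h and 259, 256 and 247 CPM in ArR_5h (log2 difference 1.07, SE 0.118, adjusted p = 0.000530 by edgeR's quasi-likelihood test). Among its peaks called higher, those at positions 378465 to 378905 and 379280 to 379695 lie upstream of its body. Those at 390494 to 390892 and 400331 to 400812 lie inside the body of evm.TU.ctg275.3 (389528 to 456389), so position alone cannot assign them to 1 of these genes. evm.TU.ctg275.3 had 7 of 14 peaks called higher and 1 lower, with a log2 difference of its sum of 1.02 (SE 0.114, adjusted p = 0.000544 by edgeR's quasi-likelihood test). These were the only 2 of the other 24 genes of the contig whose sums were called higher (against 2.57% of all genes). None was called lower (against 5.97% of all genes). Of the 25 tested peaks that lie inside the body of evm.TU.ctg275.2, whichever gene they were given to, 10 were called higher and none lower.

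The contig as a whole was mixed. Over the other 24 genes of ctg275, 48 of 212 tested peaks were called higher (22.6%, against 14.5% of all tested peaks) and 22 lower (10.4%, against 15.2%), with a median log2 difference of 0.32. Without ArR_5h replicate 1 the lower calls were 12, and without ArR_5h replicate 2 they were 13. Summed differences were positive for 15 of these 24 genes. Farther along the contig, evm.TU.ctg275.30 had 9 of 18 peaks called lower and none higher, and its summed level had a log2 difference of -0.72 (SE 0.112, adjusted p = 0.00139 by edgeR's quasi-likelihood test), under the limit on size.

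**Figure D4:**
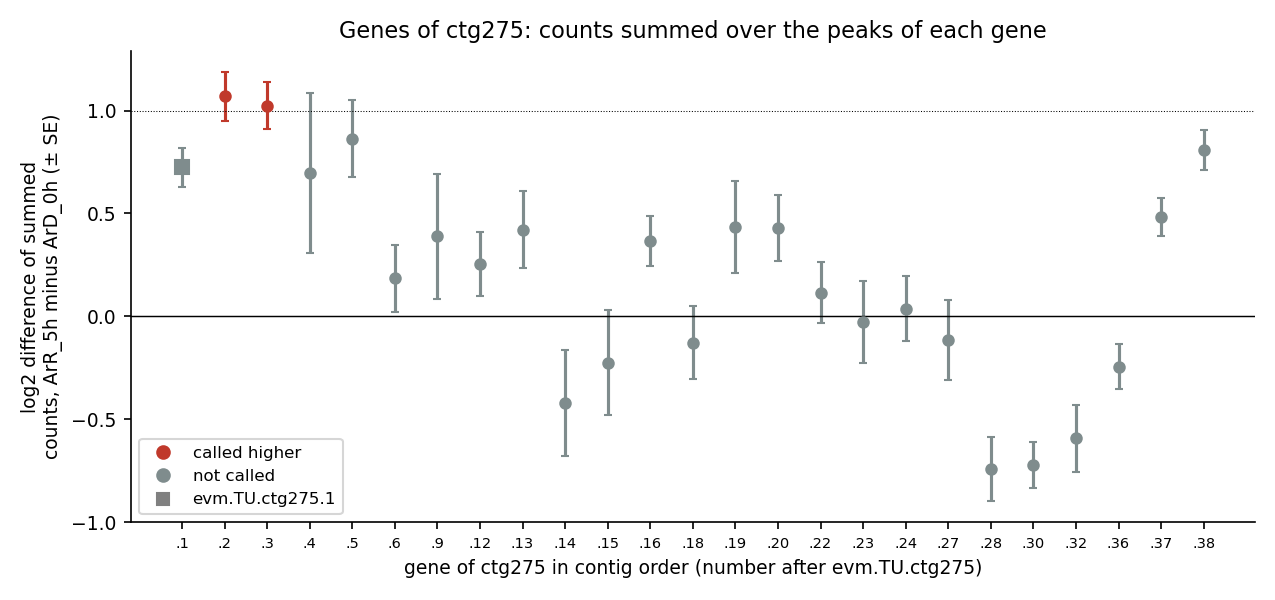
Log2 difference of counts summed over the peaks of each gene (ArR_5h minus ArD_0h, with SE) for 25 genes of ctg275 in contig order, with evm.TU.ctg275.1 as a square. The first 5 genes of the contig are between 0.70 and 1.07, red points (evm.TU.ctg275.2 and evm.TU.ctg275.3) were called higher, and evm.TU.ctg275.30 is at -0.72.

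Other genes of the same annotation were taken for comparison. That annotation covers only genes that the study found to change, partly on these libraries, and it was held here in part, so none of the lists drawn from it is complete or independent evidence of a direction. The 4 genes with proton terms had 89 tested peaks, of which 30 were called higher (33.7%, against 14.5% of all tested peaks) and 7 lower (7.87%, against 15.2%), with a median log2 difference of 0.78. evm.TU.ctg223.20, annotated to the V-type ATPase complex that pumps protons, had 5 of 9 peaks called higher. Its summed level was 48.4, 68.5 and 68.7 CPM in ArD_0h and 141, 123 and 110 CPM in ArR_5h, a log2 difference of 1.02 (SE 0.153, adjusted p = 0.00123 by edgeR's quasi-likelihood test). It was the only sum of the list that was called, where 2.57% of all genes were called higher and 5.97% lower. evm.TU.ctg110.15, annotated to ATP synthesis driven by proton flow, had 11 of 26 peaks called higher and none lower, and its sum had a log2 difference of 0.94 (SE 0.118). evm.TU.ctg36.12, annotated to the proton-carrying part of an ATPase, had 7 of 20 higher and 1 lower (sum 0.64, SE 0.0906). evm.TU.ctg6.31, annotated to hydrogen ion transport across membranes, had 7 of 34 higher and 6 lower (sum 0.42, SE 0.147), the most even split of the list. The share of higher peaks in evm.TU.ctg275.1 lay within the range of these 4 genes.

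Among the 5 other signalling genes that the study picked as rising in both of its intervals, partly on these libraries, 43 of 100 tested peaks were called higher and 7 lower (against 14.5% and 15.2% of all tested peaks, median log2 difference 0.72), and the choice itself favours higher peaks. evm.TU.ctg470.4, named by the study as an epidermal growth factor receptor, which receives growth signals at the cell surface, had 24 of 39 peaks called higher and 1 lower. evm.TU.ctg756.7, named as the regulator of G-protein signalling Loco, had 4 of 14 higher and 1 lower, and evm.TU.ctg470.6 had 3 of 15 higher and 2 lower. The sums of these 3 genes had log2 differences of 0.78, 0.41 and 0.33, and none of these 3 was called. In the whole list of 5 genes, 1 sum was called higher (against 2.57% of all genes), that of the gene with the fewest tested peaks. The list of genes annotated to signal transduction that the study selected may share genes with these 5. Over its 45 genes, 235 of 696 tested peaks were called higher (33.8%, against 14.5%) and 34 lower (4.89%, against 15.2%), with a median of 0.68. The lower calls were 18 without ArR_5h replicate 1 and 19 without ArD_0h replicate 2. Of the 45 gene sums, 6 were called higher, against 2.57% of all genes.

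The heme list, 5 genes that share heme terms with evm.TU.ctg275.1, had 28 of 99 tested peaks called higher (28.3%, against 14.5% of all tested peaks) and 9 lower (9.09%, against 15.2%), with a median log2 difference of 0.66. Within it evm.TU.ctg95.15 had 8 of 20 peaks called higher and none lower, and its sum had a log2 difference of 0.87 (SE 0.132). evm.TU.ctg185.20 had 9 of 24 higher and 2 lower, and evm.TU.ctg313.4 had 6 of 25 higher and 1 lower. evm.TU.ctg115.40 had 3 of 19 higher and 4 lower, with a sum of 0.20 (adjusted p = 0.106 by edgeR's quasi-likelihood test). No gene sum of this list was called, where 2.57% of all genes were called higher and 5.97% lower. Without ArD_0h replicate 1, the list had 18 peaks called higher and 3 lower, and the lower calls were 3 without ArR_5h replicate 1 and 5 without ArD_0h replicate 2 or ArR_5h replicate 2.

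**Figure D5:**
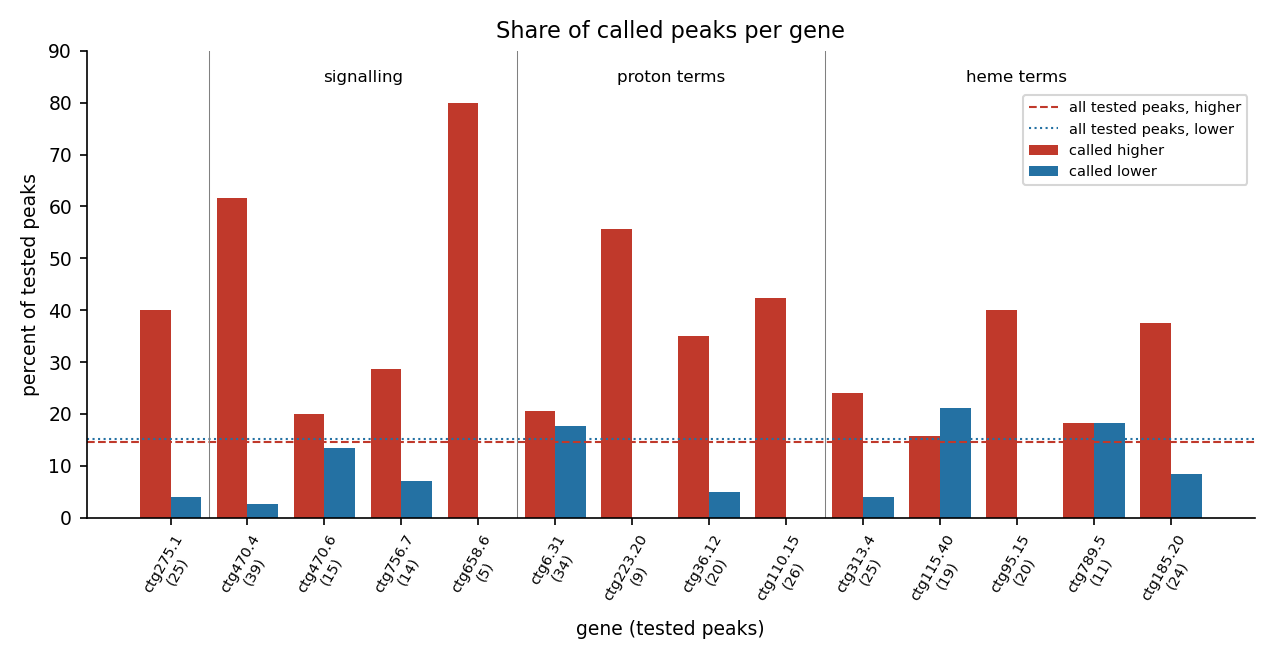
Percent of tested peaks called higher (red) and lower (blue) in evm.TU.ctg275.1 and in genes of the signalling, proton and heme lists (1 signalling gene is not shown), with the number of tested peaks under each gene. Broken lines mark the shares over all tested peaks, 14.5% higher and 15.2% lower, and evm.TU.ctg275.1 is at 40.0% higher.

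The genes with a pattern most like that of evm.TU.ctg275.1 were taken from 10388 genes by the Pearson correlation of log2 CPM of their summed counts over the 6 libraries. They were evm.TU.ctg37.29, evm.TU.ctg73.1 and evm.TU.ctg740.1, with r of 0.99998, 0.99933 and 0.99893, and 127 genes had r above 0.99. With so few libraries in 2 groups, such values describe mostly the difference between the groups. With the group means taken out, evm.TU.ctg37.29 was again the nearest, followed by evm.TU.ctg38.6 and evm.TU.ctg981.3, with r of 0.996 or above. Here 18 genes had r above 0.99 and 226 above 0.95. High values are easily found among 10388 genes with 6 libraries, so these too are descriptions only.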

How the data were processed

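ATAC-seq peaks of 6 libraries (3 ArD_0h, 3 ArR_5h) were analysed. Per the study's methods, reads were mapped with BWA to the A. franciscana assembly and peaks called with MACS2 and merged. A Tn5 offset shift and the counting tool are not given in the sources used here. The authors' deposited counts are whole reads per merged peak. The authors' deposited RPM values are these counts (plus 1) scaled by library totals, and served only to recover those totals. Gene links and coordinates are as deposited.

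Tests used edgeR 4.0.16 in R 4.3.3 (filterByExpr, TMM, quasi-likelihood test, Benjamini-Hochberg adjustment), and SE came from the log2 difference and its F statistic (their ratio, with the root of F). Counts summed per gene were tested in the same way. DESeq2 1.42.0, limma 3.58.1 (loess offsets), other library sizes, no filter, a replicate block and each library left out were alternatives. Means of log2 CPM used a prior count of 2. The procedure was tested on simulated counts. The rule named evm.TU.ctg275.1, all its peaks, genes of its contig, up to 4 genes per list with the most tested peaks, and the 3 most alike. The gene and lists were chosen with earlier results of these data known. No genome was used here, so no sequence or GC content was examined. P-values set the difference between the groups against the spread between these samples, all from the same batch of cysts. They do not cover the spread between batches. The values of 1 gene of the signalling list are not reported here by themselves, and it is part of the list's counts only. Its values played no role in leaving it out.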

Additional observations from a re-analysis of the deposited data

How the results depend on the processing

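The number of peaks of evm.TU.ctg275.1 called lower, 1, was 0 with the RPM library totals, with the loess trend removed and with the replicate block, 3 with the adjusted p alone, and 0 to 1 when each library was left out. The number called higher, 10, was between 9 and 12 in each alternative over all its peaks, and 8 with gene body peaks alone. The library totals moved the median of all tested peaks by 0.16 on the log2 scale and gave 18.9% higher and 10.6% lower calls over all peaks. The log2 difference of the gene sum, 0.72, passed with the adjusted p alone, ranged from 0.68 to 0.77 when a library was left out, and was 0.94 with the library totals, 0.60 with the loess trend removed and 0.76 with the promoter peak alone (adjusted p = 0.267 by edgeR's quasi-likelihood test). The difference in mean log2 CPM, 0.59, was 0.74 with the library totals, 1.08 with the promoter peak and 0.73 with gene body peaks. No peak lies within 1000 bp of the TSS, so that alternative gave no value. Signs turned when a library was left out at 4 peaks that were never called: 48271 bp (-0.0758 to 0.69) and 38451 bp upstream (-0.39 to 0.00791), and 10538 bp (-0.16 to 0.60) and 154988 bp inside the gene (-0.83 to 0.0535). For the lists, leaving out a library gave 29 to 44 higher and 4 to 7 lower calls for signalling. For heme it gave 18 to 35 higher and 3 to 8 lower, and for signal transduction 162 to 263 higher and 18 to 35 lower. For the contig it gave 41 to 55 higher and 12 to 25 lower, and for proton terms 27 to 34 higher and 5 to 7 lower. The library totals gave 2 lower for heme. The cause of these changes was not tested. The main tests did not pair samples by replicate number. Deviations of libraries with the same number correlated at -0.21, 0.00 and -0.15, and those with unlike numbers at -0.11 to 0.19. These values cannot decide whether samples were paired, because deviations from a mean of 3 libraries depend on each other. With the replicate block the gene had 9 peaks higher and 0 lower (adjusted p = 0.0620 at 2196 bp upstream and 0.0645 at 24351 bp by edgeR's quasi-likelihood test), and all peaks had 16550 higher and 15268 lower. Counts of 3 to 318 per peak and library, with 3 libraries per group, limit what weak peaks can show.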
